A study of Mus musculus with 6 samples.

Results

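Genes of the lipid droplet surface and of droplet lipolysis were followed by RNA-seq in cultured hepatocytes of the mouse, the main cell type of the liver. The set holds 10 genes: the perilipin genes Plin2, Plin3, Plin4 and Plin5, the Cide genes Cideb and Cidec, the triglyceride lipase gene Pnpla2 with its inhibitor G0s2 and its coactivator Abhd5, and the related lipase gene Pnpla3. These 10 genes were chosen by name, with earlier results of these data known, out of 22609 gene rows in the deposited tables. All 10 had enough counts to be tested, Pnpla3 only through its PBS libraries. The primary hepatocytes came from male wild type animals of 4 months on a C57BL/6 background and were exposed for 16 h to 20 µg/mL LRG1 protein or to PBS (phosphate-buffered saline), with 3 libraries per treatment. LRG1 is a glycoprotein with leucine-rich repeats that is released into blood, and the study's title names it an adipokine and ties it to fatty liver and insulin resistance. The source of the protein and the number of mice behind the cultures are not given in the labels.

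A lipid droplet is a core of triglyceride and sterol ester under a single layer of phospholipid, and coat proteins on that layer govern how fast the core grows or is broken down. Perilipins shield the core from lipases, and CIDE proteins pass lipid between droplets that touch. In the cytosol the first ester bond of triglyceride is cut by PNPLA2, also called ATGL. ABHD5, also called CGI-58, activates this lipase, and G0S2 binds and inhibits it. In liver the balance of these proteins is known to influence how much triglyceride hepatocytes store, oxidise or export with lipoproteins.

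The libraries held between 18625748 and 23036332 gene counts. All 12 hepatocyte markers were detected, with a summed level of 51332 to 52567 CPM with PBS and 50526 to 51564 CPM with LRG1 (CPM, the count of a gene relative to the scaled total of its library). Of these 12 markers 6 were lower with LRG1, 2 higher and 4 not called, with Cps1 4.32-fold and Tat 7.69-fold lower; whether this bears on the 10 genes was not tested. Of 12301 tested genes, 51.4% differed between the treatments at an adjusted p below 0.05, 25.5% being higher and 25.8% lower with LRG1. In these bulk samples a loss of cells of a type and a lower RNA content per cell cannot be told apart.

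Of the 10 genes 7 changed with LRG1 (70%), 2 upward and 5 downward, against 51.4% of all tested genes. As the genes were chosen with earlier results of these data known, the 2 shares were not compared by a test. G0s2, the inhibitor of the lipase, rose 2.87-fold, and Plin2, the main perilipin of hepatocytes, rose 1.44-fold. Pnpla3 fell 3.87-fold, Plin5 2.80-fold, the lipase gene Pnpla2 1.53-fold, Cideb 1.42-fold and Plin3 1.19-fold. Plin4, Cidec and the coactivator gene Abhd5 did not pass the threshold. The values of the 3 LRG1 libraries lay outside the range of the 3 PBS libraries for the same 7 genes, as they did for 57.6% of all tested genes. The median log2 fold change of the 10 genes was -0.21, beside 0.0093 for all tested genes.

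**Figure D1:**
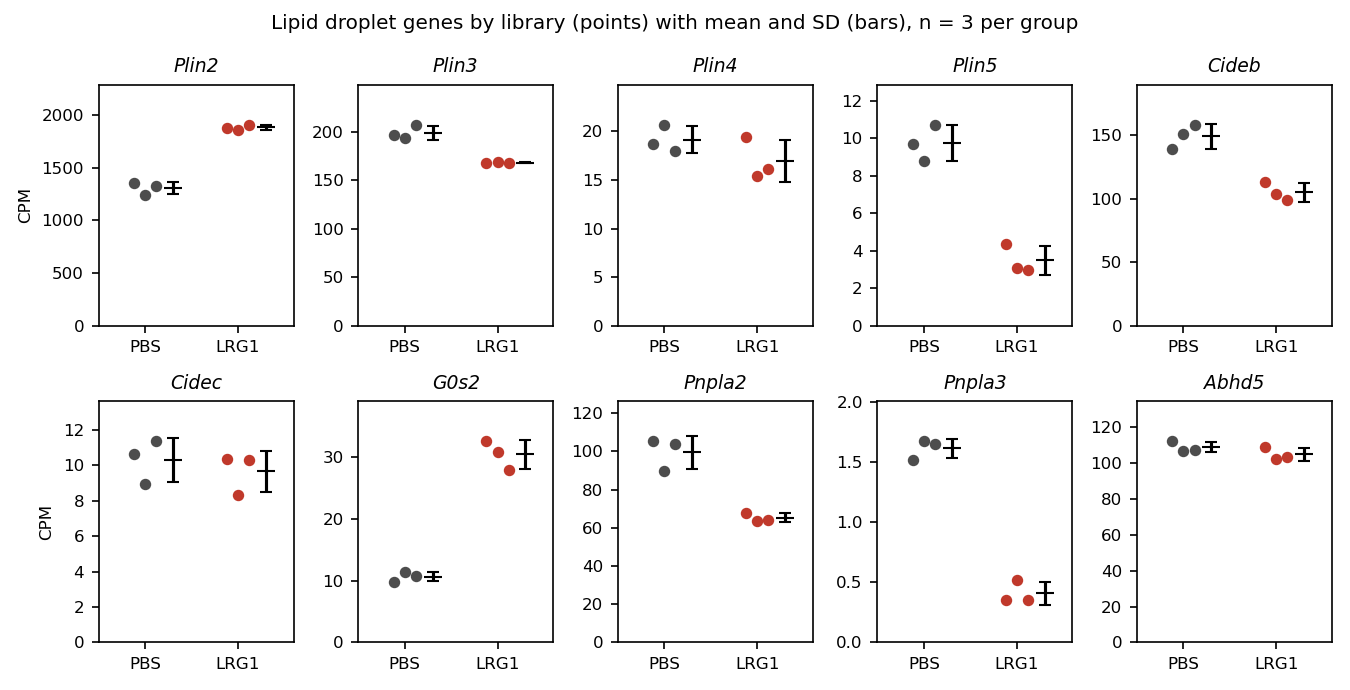
Level of each of the 10 genes in every library, in CPM on a linear axis that starts at 0 and differs between panels. Points are the 3 PBS (grey) and 3 LRG1 (red) libraries, and the bars beside them give the mean and SD. The groups are separate for every gene except Plin4, Cidec and Abhd5.

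**Figure D2:**
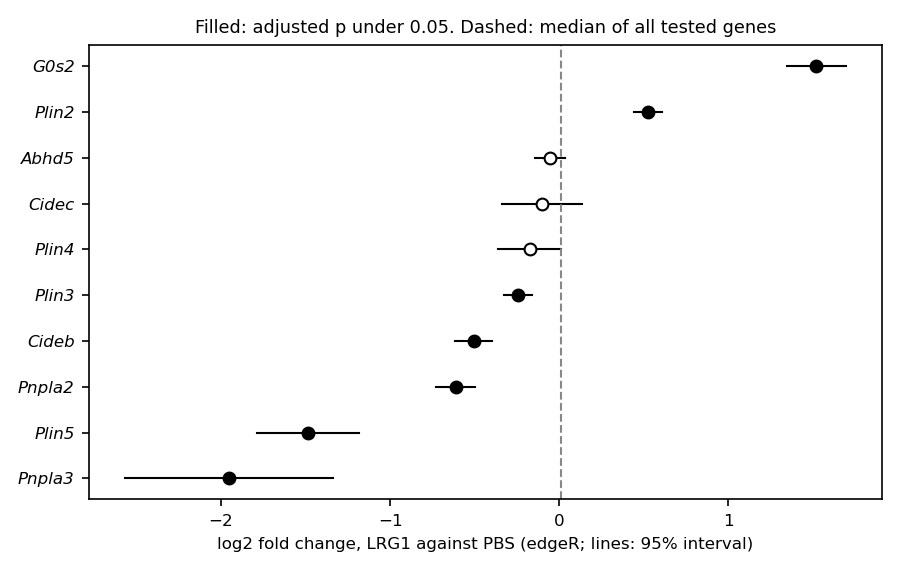
Log2 fold change of each gene, LRG1 against PBS, from edgeR, with lines for the 95% interval. Filled points passed an adjusted p of 0.05, and the dashed line is the median of all tested genes at 0.0093. G0s2 (1.52) and Plin2 (0.53) lie to the right, and Pnpla3 (-1.95) has the widest interval.

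The promoters of the 2 genes that rose and of the 3 that fell most are shown so that the letters upstream of genes that moved in opposite directions can be compared. They are RefSeq sequences of build GRCm38.p6, not the build named for the files (mm9), written 5′ to 3′ on the strand of the gene. Only bases upstream of the outermost start that RefSeq gives the gene are printed, at most 250. Capitals mark the matches to the motifs searched.
G0s2: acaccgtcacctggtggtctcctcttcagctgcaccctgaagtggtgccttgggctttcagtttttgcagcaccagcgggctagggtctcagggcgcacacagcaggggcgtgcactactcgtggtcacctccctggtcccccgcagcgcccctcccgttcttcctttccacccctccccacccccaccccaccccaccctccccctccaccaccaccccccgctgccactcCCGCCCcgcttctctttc
Plin2: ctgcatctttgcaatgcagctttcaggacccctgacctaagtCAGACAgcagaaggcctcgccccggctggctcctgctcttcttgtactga
Pnpla2: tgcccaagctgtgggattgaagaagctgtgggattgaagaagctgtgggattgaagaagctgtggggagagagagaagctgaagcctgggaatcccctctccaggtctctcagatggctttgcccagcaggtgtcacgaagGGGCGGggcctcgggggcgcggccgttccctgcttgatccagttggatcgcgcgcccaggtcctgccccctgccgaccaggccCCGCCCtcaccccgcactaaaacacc
Plin5: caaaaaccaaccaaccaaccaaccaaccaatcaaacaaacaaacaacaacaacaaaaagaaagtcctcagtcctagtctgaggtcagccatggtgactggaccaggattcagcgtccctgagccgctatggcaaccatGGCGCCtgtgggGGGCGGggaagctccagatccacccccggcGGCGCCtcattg
Pnpla3: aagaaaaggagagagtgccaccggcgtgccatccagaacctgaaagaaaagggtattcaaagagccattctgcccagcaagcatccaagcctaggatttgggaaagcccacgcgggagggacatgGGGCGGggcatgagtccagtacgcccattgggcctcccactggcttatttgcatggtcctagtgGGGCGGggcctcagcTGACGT
The stretches lie at chr1:193273189-193273438 on the minus strand for G0s2, chr4:86670218-86670309 on the minus strand for Plin2, chr7:141454938-141455187 on the plus strand for Pnpla2, chr17:56117607-56117798 on the minus strand for Plin5 and chr15:84167566-84167775 on the plus strand for Pnpla3.

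The search covered both strands of 300-base windows, 250 bases before to 50 after a start, for 13 motifs in 32851 windows of the RefSeq table, in which all 10 genes were found. The GC box GGGCGG, a site of Sp1-type factors, was in the first window of 8 of the 10 genes and in 35.658% of all windows. The cyclic AMP response element TGACGTCA, which contains the shorter motif TGACGT, was matched only in the window of Pnpla3 among the 10 genes, 46 bases before its start, and in 1.79% of all windows. The printed stretch of Pnpla3 ends inside that element. The E-box CACGTG, a site of helix-loop-helix factors, was matched from 4 bases before the start used for Plin2, downstream of the printed stretch, and in 7.15% of all windows. The AP-1 site TGACTCA was in the first windows of Plin5, 11 bases before the start and beyond the printed stretch, and of Cideb, and in 5.202% of all windows. The GC-rich SMAD site GGCGCC occurred at 2 places in the Plin5 window and at 1 in that of Plin4, and in 11.866% of all windows. CAGACA, another SMAD motif, was found for Plin2 and Abhd5 and in 21.043% of all windows. The remaining motifs were the glucocorticoid receptor motif TGTTCT (18.974% of windows) and TATAAA (13.616%), both found for Cideb alone, and the FOXO site TGTTTAC (3.65%), the sterol element TCACNCCAC (1.242%), the SMAD palindrome GTCTAGAC (0.213%) and the PPAR direct repeat element (0.04%), none of which was matched in a first window of the 10 genes.

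Among the perilipins, Plin2 rose and 2 others fell. Plin2, also known as adipophilin, coats the droplets of most cell types and its protein is stabilised by the lipid it covers. Its locus is on chromosome 4 of GRCm38 (positions 86648386 to 86670060, minus strand). It was read at 1349, 1239 and 1329 CPM in PBS replicates 1 to 3 and at 1879, 1855 and 1906 CPM in LRG1 replicates 1 to 3. Every LRG1 library was above every PBS library. The group means were 1306 ± 58.9 and 1880 ± 25.4 CPM (SD, n = 3 each), a log2 fold change of 0.53 (SE 0.039, adjusted p = 6.46e-11). Plin2 transcripts alone took up 0.123 to 0.135% of all gene counts with PBS and 0.186 to 0.192% with LRG1, and the gene ranked 45th of all tested genes by mean CPM.

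Plin3, or TIP47, is a perilipin found in the cytosol and on small, newly forming droplets. It had 197, 193 and 207 CPM in the PBS libraries and 167, 169 and 168 CPM in the LRG1 libraries. The LRG1 libraries were nearly identical and all below the PBS libraries, with group means of 199 ± 7.19 and 168 ± 0.568 CPM. The difference passed the test but was small (log2 fold change -0.25, SE 0.039, adjusted p = 1.33e-05).

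Plin5 tethers droplets to mitochondria and is most abundant in tissues that oxidise fatty acids. Its levels were 9.72, 8.78 and 10.7 CPM with PBS and 4.38, 3.11 and 2.97 CPM with LRG1. Every LRG1 library was well below every PBS library. The log2 fold change was -1.49 (SE 0.14, adjusted p = 6.95e-09), with a 95% interval of -1.79 to -1.19. It ranked 329th from the lowest log2 fold change of all tested genes.

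Plin4, a long perilipin best known from fat and muscle, had 18.7, 20.7 and 18.04 CPM with PBS and 19.4, 15.4 and 16.1 CPM with LRG1. LRG1 replicate 1 lay among the PBS libraries and the other LRG1 libraries lay below them. The log2 fold change of -0.18 did not pass (adjusted p = 0.11, 95% interval -0.36 to 0.011). It passed without LRG1 replicate 1 (-0.29, adjusted p = 0.0116) and when trends with GC content and length were removed (-0.26, adjusted p = 0.0177). Its adjusted p ranged between 0.0116 and 0.406 across the alternatives tried. Exons of Plin4 share 17 bases with Hdgfl2 on the opposite strand.

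Compared per length of transcript, Plin2 made up most of the perilipin RNA in both treatments, and its share was larger with LRG1. Plin2 accounted for 91.7 ± 0.291% of the summed CPM per kilobase of the 4 perilipins with PBS and for 95.1 ± 0.0885% with LRG1. Plin3 went from 7.24 ± 0.253 to 4.40 ± 0.0655% and Plin5 from 0.649 ± 0.0457 to 0.168 ± 0.0375%. The summed perilipin level per length was 717 to 777 CPM per kilobase in the PBS libraries and 1033 to 1060 in the LRG1 libraries. Without Plin2 the sum went the other way, from 61.0 to 65.4 with PBS to between 50.4 and 51.5 with LRG1. Within each library the log2 ratio of Plin5 to Plin2 counts was -7.12, -7.14 and -6.95 with PBS and -8.74, -9.22 and -9.32 with LRG1. The ratio was thus 4.07-fold lower on average, with no overlap between groups (exact two-sided permutation test, p = 0.1, the smallest that 3 against 3 libraries allow). As both genes were apart between groups in opposite directions, their ratio had to be apart too, and this p adds nothing to the single-gene results.

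The Cide genes did not move together. Cideb is the family member of normal hepatocytes, where it takes part in loading lipid onto very low density lipoprotein. It was read at 139, 151 and 158 CPM with PBS and at 113, 103 and 98.6 CPM with LRG1. All LRG1 libraries were below the PBS libraries (log2 fold change -0.51, SE 0.052, adjusted p = 1.51e-08). On GRCm38, 76.3% of the exon bases of Cideb overlap Nop9 on the opposite strand, and because the strand setting of the counting is not given, the reads of this overlap cannot be assigned with certainty. Nop9, a ribosome assembly gene listed under its older symbol 2610027L16Rik, had 64.5 ± 2.60 and 60.3 ± 1.40 CPM (adjusted p = 0.108).

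Cidec, also called FSP27, drives the fusion of droplets into large ones and is known to rise in fatty liver. It was scarce here, with 10.6, 8.95 and 11.4 CPM with PBS and 10.4, 8.33 and 10.3 CPM with LRG1. The libraries of both treatments were interleaved. The log2 fold change was -0.10 (SE 0.11, adjusted p = 0.49) at 166 to 214 counts per library. The 95% interval ran from -0.34 to 0.14, and a true difference anywhere in it remains possible. The log2 fold change of Cidec was 0.00092 without LRG1 replicate 2. The log2 ratio of Cidec to Cideb counts was higher in each LRG1 library than in each PBS library, by 0.41 on average (exact two-sided permutation test, p = 0.1). The Cideb counts in this ratio carry the uncertainty of the Nop9 overlap given above.

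For the lipase and its regulators, the inhibitor rose, the lipase fell and the coactivator did not pass the test. Pnpla2 was read at 105, 89.5 and 104 CPM with PBS and at 67.9, 63.6 and 64.0 CPM with LRG1. The LRG1 libraries were all below the PBS libraries, with means of 99.5 ± 8.71 and 65.2 ± 2.39 CPM. The log2 fold change was -0.61 (SE 0.056, adjusted p = 2.04e-09).

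G0s2, a short gene on chromosome 1 whose longest coding transcript in GENCODE has 871 nucleotides, had 9.82, 11.3 and 10.7 CPM with PBS. It had 32.6, 30.8 and 27.9 CPM with LRG1. Each LRG1 library was above each PBS library, and the log2 fold change was 1.52 with a 95% interval of 1.35 to 1.69 (SE 0.084, adjusted p = 2.72e-13). By log2 fold change it ranked 276th from the top of the 12301 tested genes.

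Abhd5 had 112, 107 and 107 CPM with PBS and 109, 102 and 103 CPM with LRG1. The groups overlapped, with LRG1 replicate 1 among the PBS libraries. Its log2 fold change of -0.054 (SE 0.043, adjusted p = 0.312) had a 95% interval from -0.14 to 0.036. Of the exon bases of Abhd5, 15.95% overlap an antisense transcript that has no row of its own in the tables.

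The ratio of inhibitor to lipase within a library does not depend on how the libraries are scaled. Per length of transcript, G0s2 stood at 0.281, 0.381 and 0.311 of the level of Pnpla2 in PBS replicates 1 to 3 and at 1.45, 1.46 and 1.31 of it in LRG1 replicates 1 to 3. With PBS, Pnpla2 was thus the more abundant transcript in every library, and with LRG1 it was G0s2. The ratio of their counts was 4.37-fold higher with LRG1 (log2 difference 2.13, exact two-sided permutation test, p = 0.1). The separation of this ratio, and so its p, already followed from the separation of G0s2 and Pnpla2 in opposite directions. The ratio of the coactivator Abhd5 to G0s2 per length was 3.15, 2.60 and 2.76 with PBS and 0.924, 0.914 and 1.02 with LRG1, a 2.97-fold lower ratio of counts (p = 0.1, same exact test). With Benjamini-Hochberg adjustment over the 4 ratios compared, each p remained 0.1.

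**Figure D3:**
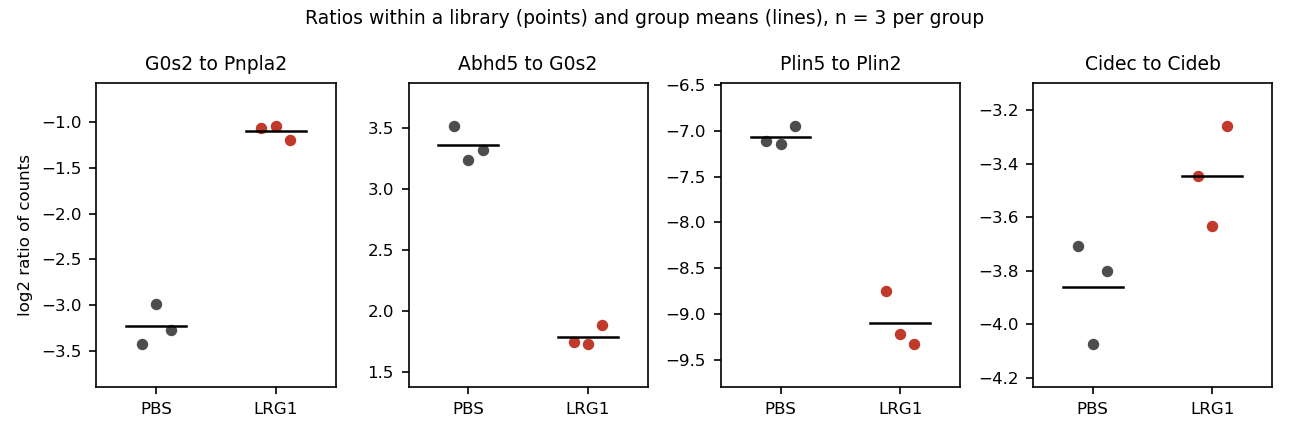
Log2 ratio of the counts of 2 genes within each library, for 4 pairs; points are libraries, lines are the means of 3, and each panel has its own axis. The groups do not overlap in any of the panels, and the gap between means is 2.13 for G0s2 to Pnpla2 and 0.41 for Cidec to Cideb. For G0s2 to Pnpla2 and Plin5 to Plin2 the separation follows from that of the single genes.

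Pnpla3, or adiponutrin, is a relative of PNPLA2 on droplets and is known as a gene that feeding and SREBP-1c induce in liver. It was the scarcest of the 10 genes, with 30, 31 and 31 counts in the PBS libraries and 7, 12 and 7 counts in the LRG1 libraries. This corresponds to 1.52, 1.67 and 1.65 CPM and to 0.349, 0.518 and 0.353 CPM. The groups were far apart, but the low counts left a wide interval. Pnpla3 met the count filter only through its PBS libraries, as LRG1 replicates 1 and 3 had 7 counts each. The log2 fold change was -1.95 (SE 0.30, adjusted p = 6.48e-06) with a 95% interval of -2.57 to -1.34, and the gene ranked 169th from the lowest of all tested genes. In GENCODE, 6.78% of its exon bases overlap another transcript on the same strand.

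Ordered by CPM per kilobase of the longest coding transcript, the PBS libraries gave Plin2, Cideb, Plin3, Pnpla2, Abhd5, G0s2, Cidec, Plin5, Plin4 and Pnpla3, from 692 ± 31.2 for Plin2 to 1.23 ± 0.0622 for Pnpla3. Of the neighbours in this order, Pnpla2 and Abhd5, and Cidec and Plin5, overlapped between libraries. Plin2 was 5.62-fold above Cideb, the next gene. With LRG1 this gap was 11.5-fold, G0s2 moved up to the fourth place beside Abhd5, whose libraries it overlapped, and Plin5 came to lie below Plin4. Plin2 supplied 71.3 ± 1.03% of the summed level per length of the 10 genes with PBS and 80.8 ± 0.819% with LRG1. The reference length matters for such levels. With the union of all annotated exons as length, a choice made after seeing the data, the shares of Plin2 were 61.7 and 72.9%, and with LRG1 G0s2 stood at 34.9 and Abhd5 at 17.6 CPM per kilobase. By this length the gap from Plin2 to Cideb was smaller, at 372 and 100 CPM per kilobase with PBS and 535 and 70.5 with LRG1. The overlap with Nop9 makes the Cideb levels uncertain under either length.

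**Figure D4:**
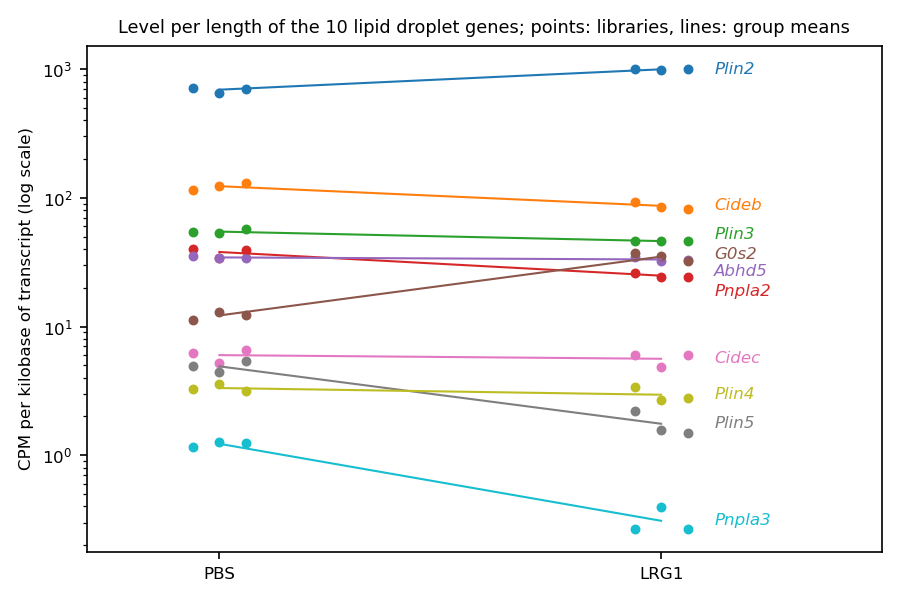
Level per length of the 10 genes in PBS and LRG1 libraries, as CPM per kilobase on a log axis; points are libraries and lines join the group means. Plin2 stays on top at 692 and 996, while G0s2 crosses Pnpla2 on its way from 12.2 to 34.9.

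Other coat proteins and lipases were mostly lower or without a call. This list and the lists below were likewise chosen with earlier results of these data known. Of 22 such genes 19 could be tested, of which 11 fell, 1 rose and 7 did not pass, with a median log2 fold change of -0.25. Of all tested genes 25.8% fell and 25.5% rose. Mgll, the monoacylglycerol lipase that ends droplet lipolysis, fell from 13.0 ± 1.48 to 3.15 ± 0.489 CPM (log2 fold change -2.04, adjusted p = 6.93e-12). Lipe, the hormone-sensitive lipase that acts after PNPLA2, had 10.3 ± 1.16 and 9.63 ± 0.0832 CPM (adjusted p = 0.439, 95% interval -0.32 to 0.12), though 15.6% of its exon bases overlap an antisense gene. Hilpda, a droplet protein that inhibits PNPLA2 as G0S2 does, is listed under its older symbol 2310016C08Rik and had 37.6 ± 3.07 and 34.8 ± 2.62 CPM (log2 fold change -0.11, adjusted p = 0.193; 0.020 with trends with GC content and length removed). The inhibitors G0s2 and Hilpda thus differed in call; the difference between them was not tested. The hepatic lipase gene Lipc was 1.68-fold lower and the carboxylesterase gene Ces1f 3.28-fold lower, the latter with close paralogs that make its counts uncertain. Ddhd1, a phospholipase, rose 2.20-fold. Of the coat proteins typical of fat cells, Plin1 had 7 counts over the PBS group and 8 over the LRG1 group, too few for a test, and Cidea fell from 2.45 ± 0.241 to 1.43 ± 0.0818 CPM.

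For the genes that form droplets or sit on their surface, 20 of 39 tested genes fell, 3 rose and 16 did not pass, with a median of -0.19. Among all tested genes 25.8% fell and 25.5% rose. Hsd17b13, a droplet enzyme abundant in hepatocytes, fell from 207 ± 16.7 to 67.5 ± 2.38 CPM (log2 fold change -1.62, adjusted p = 1.22e-17). Mettl7a1, another droplet-associated protein gene with close paralogs, was 2.59-fold lower, and Acsl4, an acyl-CoA synthetase, 1.73-fold lower. Rdh10, a retinol dehydrogenase found on droplets, was 2.50-fold higher. The last step of triglyceride synthesis is shared by 2 unrelated enzymes. Dgat2 fell from 131 ± 6.56 to 81.7 ± 7.83 CPM, while Dgat1 had 30.8 ± 1.62 and 32.4 ± 1.15 CPM (adjusted p = 0.365, 95% interval -0.060 to 0.20). Bscl2, which encodes the droplet assembly protein seipin and overlaps other genes in part, was 1.32-fold lower.

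Genes of lipophagy and of coat protein turnover had no common direction. Of 20 tested, 6 rose, 4 fell and 10 did not pass, with a median of 0.018. These counts were near the shares of all tested genes, of which 25.5% rose and 25.8% fell. Ubr2, a ubiquitin ligase of the N-degron pathway, was 1.72-fold higher and the autophagy kinase gene Ulk1 1.35-fold higher. Atg7, which starts the conjugation of autophagy proteins, was 1.36-fold lower, and Lamp1, a lysosomal membrane protein gene that overlaps Grtp1 in part, 1.24-fold lower.

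Transcription factors and transcriptional coactivators known to act on droplet genes were mostly lower. Of 19 tested, 13 fell, 1 rose and 5 did not pass, with a median of -0.30, beside 25.8% lower and 25.5% higher among all tested genes. Pparg, which drives Plin2, Cidec and G0s2 in fat cells and in fatty liver, fell from 31.6 ± 1.79 to 16.5 ± 1.499 CPM. Ppara, the fatty acid receptor with targets that include Plin2, Plin5 and G0s2 in liver, went from 25.5 ± 1.08 to 21.2 ± 1.79 CPM (log2 fold change -0.27, adjusted p = 0.00447). Klf15 was 3.93-fold lower, the lipogenic factor Mlxipl (ChREBP) 1.60-fold lower, Cebpa 1.78-fold lower and Egr1 1.75-fold lower.

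Among 28 tested target genes of PPARA, 18 fell, 3 rose and 7 did not pass, with a median of -0.39. The shares of all tested genes were 25.8% lower and 25.5% higher. The fatty acid uptake receptor gene Cd36, the aldehyde dehydrogenase gene Aldh3a2 and the carnitine palmitoyltransferase gene Cpt1a fell 12.4-fold, 2.23-fold and 2.17-fold.

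**Figure D5:**
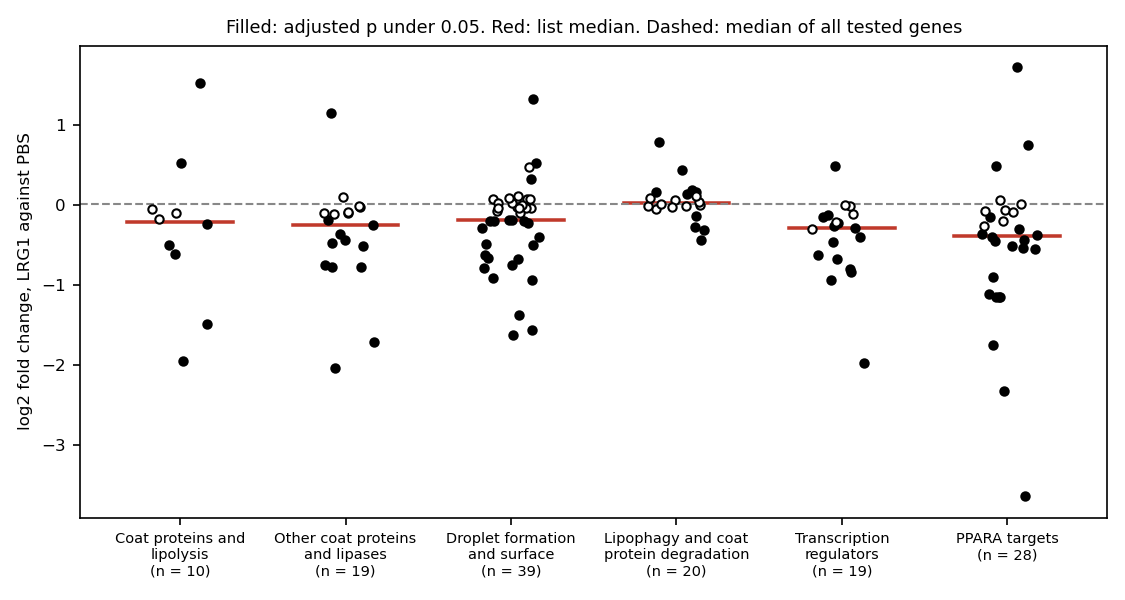
Log2 fold change of every tested gene in 6 lists, LRG1 against PBS; filled points passed an adjusted p of 0.05, red lines are list medians and the dashed line is the median of all tested genes. Medians run from -0.39 for the PPARA targets to 0.018 for lipophagy, and each list holds genes above and below the dashed line.

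Markers of other cell types were detected in both treatments. Of the 10 adipocyte markers 9 were detected, with a sum of 128 to 134 CPM with PBS and 92.0 to 98.5 CPM with LRG1, of which Car3 alone had 93.8 and 71.7 CPM. Lep was at 0 in all libraries, and Adipoq had 15 counts over the PBS group and 6 over the LRG1 group. Of the 5 adipocyte markers with enough counts for a test, 3 were lower with LRG1 and 2 were not called. The 9 macrophage markers, all detected, summed to 225 to 270.1 CPM with PBS and 185 to 210.3 CPM with LRG1. Cd68 alone had 236 and 184 CPM, and the other tested markers of macrophages had group means of at most 3.96 CPM. Of the 8 tested, 1 was higher, 2 were lower and 5 were not called. The 11 markers of stellate cells and fibroblasts, all detected, summed to 59.9 to 68.3 CPM with PBS and 158 to 169 CPM with LRG1, and the gap between these sums lay almost wholly in Col1a1, at 11.2 and 110.2 CPM. Of the 8 tested, Col1a1 and Acta2 (1.21-fold) were higher, Reln was 1.86-fold lower and 5 were not called, among them the other collagen genes Col1a2 (log2 fold change -0.091) and Col3a1 (-0.17) and the proteoglycan gene Dcn (-0.029). The 8 endothelial markers summed to 45.8 to 49.8 and 44.5 to 45.5 CPM, led by Cdh5 at 16.1 and 17.03 CPM. Behind these like sums, Stab2 was 2.04-fold and Lyve1 2.24-fold lower, Eng was 1.34-fold higher and 4 of 7 tested were not called. The 7 cholangiocyte markers summed to 4447 to 4631 and 4326 to 4643 CPM, nearly all from Spp1 at 4437 and 4442 CPM. Of the 4 tested, Krt19 was 5.66-fold lower (18.4 and 3.24 CPM, adjusted p = 1.24e-13), Sox9 was 1.60-fold higher, and Spp1 and Muc1 were not called. All endothelial and cholangiocyte markers were detected, though Cftr had 0 counts over the PBS group and 1 over the LRG1 group. The stellate cell marker Lrat had 20 and 1 counts, too few for a test. Beside these marker calls, 25.5% of all tested genes were higher and 25.8% lower with LRG1. The part of these other cell types in the values of the 10 genes was not tested.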

How the data were processed

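Poly(A)-selected, strand-marked RNA libraries of 6 hepatocyte samples, 3 per treatment, were sequenced as single 50-base reads, per the labels' protocols. The deposited values are raw read counts per gene, 1 table per library. Per the submitters' processing notes, bcl2fastq, TopHat2 and HTSeq were used with build mm9. The sources used here give no versions, annotation, strand setting or aligner setting for multiply aligned reads. The HTSeq summary rows were left out. Alignments that were not unique stood in such a row, outside the gene counts, and made up 58.2 to 59.3% of the sum of all rows per library. Of uniquely aligned reads, 8.96 to 10.3% were in no gene.

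Genes passing filterByExpr (minimum count 10) were fitted on treatment alone with edgeR 4.0.16 (TMM, quasi-likelihood F test, R 4.3.3), and p-values were adjusted by Benjamini-Hochberg over all 12301 tested genes. SE and 95% intervals come from the F statistic. CPM uses the TMM-scaled totals of tested genes. Lengths are those of the longest coding transcript in GENCODE vM21 (GRCm38), which also gave positions and overlaps. Ratios were tested by exact permutation over libraries (scipy 1.17.1). The 10 genes and the lists were chosen with earlier results of these data known. Named are all 10 genes, up to 4 genes with the smallest p per list, 11 further droplet genes set by name, and, of the markers, the most abundant and any at 0. Nop9 and the other markers were named after their values were seen. A gene that the rule also names is not reported here. Whether the samples of a group were separate mice or cultures is not stated. The p-values therefore reflect the scatter among these libraries, and this scatter may be technical. Counts of replicates differed beyond sampling noise in every pair (chi-square per degree of freedom 2.89 to 4.15). Alternatives were other scalings, filters, DESeq2 1.42.0, limma-voom (limma 3.58.1), a robust fit, GC and length trends, a replicate block and leaving out each library.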

Additional observations from a re-analysis of the deposited data

How the results depend on the processing

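Across 17 alternatives the count of genes that rose (2) and fell (5) among the 10 stayed within 1.5 times the reported one, and 7 kept their direction and call in each: Plin2 (log2 fold change 0.49 to 0.61), G0s2 (1.46 to 1.60), Plin3, Plin5, Cideb, Pnpla2 and Pnpla3 (-2.18 to -1.86). Plin4 passed under 3 alternatives. Cidec ran from -0.19 without PBS replicate 2 to 0.00092 without LRG1 replicate 2, and Hilpda (2310016C08Rik) at 0.020 with GC and length trends removed and 0.017 with the replicate block added; neither passed. Same-numbered samples did not deviate together (r of -0.12, -0.014 and -0.12). With 3 libraries per group this cannot show whether the numbers pair the samples. The replicate block left 5890 genes called against 6317 and changed no call among the 10 genes; with GC and length trends removed as well, Plin4 passed (adjusted p = 0.0266). Leaving out 1 library gave 5630 to 6015 calls. Counts of 7 to 31 limit Pnpla3.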
